A study of Rattus norvegicus with 4 samples.

Results

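The genes described here encode the aminoacyl-tRNA synthetases, measured in the adrenal medulla of rats. Members were taken by symbol: probe sets whose annotation names a single gene, with a symbol made of 1 letter followed by ars and, where present, 1 or 2, or the symbols Eprs, Eprs1, Ears2, Pars2, Farsa and Farsb. No measured value entered this rule. It gave 32 genes of 14217 with such a probe set, 19 cytosolic and 13 mitochondrial, the latter being those with a symbol ending in 2. Lars2, Mars2 and Pars2, which also come under the rule, had no probe set that names them alone and were not analysed as members. A gene with several probe sets (a probe set is several short probes against the same transcript) was represented by the brightest.

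The study hybridised total RNA from rat adrenal medulla, the chromaffin cell tissue that secretes adrenaline, to 4 single-colour arrays. Unstressed animals gave 2 arrays, and rats held immobilized for 2 h, a standard rodent stress, gave the other 2. Strain, sex, age, pooling and any other treatment are not stated in the labels used here. Nothing says whether arrays of a group came from separate animals, so each p-value reflects only array-to-array spread, which may be technical. Values are linear intensities, and changes are differences of log2(intensity + 16), immobilized minus unstressed, tested with limma over all 18625 probe sets above a filter on dim signal.

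Each synthetase joins a given amino acid to its own transfer RNA, the charged form that the ribosome uses. Cytosolic translation and the mitochondrial ribosome mostly use separate sets of these enzymes, all encoded in the nucleus, while Kars1 and Gars1 are known to serve both. Several cytosolic synthetases are held in a multisynthetase complex with 3 scaffold proteins, and many of their genes are known targets of Atf4, the transcription factor of the amino acid response. Eprs1 is unusual in that a single protein charges both the glutamate and the proline transfer RNA.

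The promoters of these genes were searched for TGATGNAA, the core of the element that Atf4 binds with a C/EBP partner, since this is the known site of regulation by amino acid supply. RefSeq promoter windows of the GRCr8 assembly, 250 bases before to 50 bases after the start, were matched for 30 of the 32 members. The motif, on either strand, lay in 7 of 17 cytosolic windows, or 41.2%, and in 0 of 13 mitochondrial windows, against 3.98% of all 33469 windows in the table and 3.35% of the 21842 of protein-coding genes. The cytosolic genes with a match were Aars1, Cars1, Iars1, Mars1, Nars1, Tars1 and Yars1. The last 120 bases before the start are shown for Tars1, which rose, for Iars1 and Mars1, which did not, for Eprs1, which rose most, and for Vars2 and Rars2, both mitochondrial genes that fell. Capitals mark the match, which in these windows reads in the reverse direction.
Tars1, chr2:62114803-62114922, minus strand: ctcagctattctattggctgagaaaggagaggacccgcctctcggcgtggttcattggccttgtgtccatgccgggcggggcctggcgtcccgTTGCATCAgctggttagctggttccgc
Iars1, chr17:15193653-15193772, minus strand: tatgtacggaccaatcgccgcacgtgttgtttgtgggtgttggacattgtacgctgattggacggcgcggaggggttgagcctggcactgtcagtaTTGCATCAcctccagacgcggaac
Mars1, chr7:65023754-65023873, minus strand: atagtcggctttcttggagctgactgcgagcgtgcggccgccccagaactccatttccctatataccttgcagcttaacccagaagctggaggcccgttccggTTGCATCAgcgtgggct
Eprs1, chr13:99433133-99433252, plus strand: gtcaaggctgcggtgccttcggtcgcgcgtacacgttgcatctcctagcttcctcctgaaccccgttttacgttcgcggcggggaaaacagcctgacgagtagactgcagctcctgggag
Vars2, chr20:3081788-3081907, plus strand: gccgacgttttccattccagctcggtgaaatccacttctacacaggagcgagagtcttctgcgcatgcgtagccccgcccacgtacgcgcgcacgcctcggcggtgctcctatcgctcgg
Rars2, chr5:53977753-53977872, plus strand: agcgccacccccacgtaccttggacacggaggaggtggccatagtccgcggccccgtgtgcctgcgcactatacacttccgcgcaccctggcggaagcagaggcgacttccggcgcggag
The match of Tars1 ran from 27 to 20 bases before the start, that of Iars1 from 24 to 17 and that of Mars1 from 17 to 10. Nars1 had its match in the forward direction, from 14 to 7 bases before the start. A match is a run of letters and not a shown binding site. The cAMP response element TGACGTCA, searched the same way, lay in 0 of the 30 windows, against 1.83% of all windows. At so low a share 0 is a likely count in 30 windows, as it is for TGATGNAA in the 13 mitochondrial ones. Neither count sets these windows apart.

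The 4 arrays had been scaled before deposit to the same trimmed mean, and their median intensities ran from 827 to 955. Known stress responsive genes moved with the labels: Fos read 574 and 291 in unstressed and 12288 and 14407 in immobilized rats. Markers of chromaffin cells were bright, from 7173 upward over 7 genes, but so were markers of adrenal cortex, from 13924 upward over 6 genes, so the RNA held transcripts of both. Summed cortex markers read 257132 and 292082 unstressed and 276701 and 207638 immobilized, so the groups overlapped. Chromaffin sums overlapped too, at 294563 and 271301 against 362609 and 254343. The highest intensity was 52133 on immobilized 2, against 70582 and 75600 on the unstressed arrays and 74590 on immobilized 1. Its part in the low sums of immobilized 2 was not tested. Of the 6 cortex markers, Nr5a1 rose by 0.47 and 0 passed as falls, but 4 lay below 0 and 2 above, with a median of -0.26. Cyp11b1 was the lowest, at -0.64, and did not pass (adjusted p = 0.0591 in limma). Of 3 Schwann or sustentacular markers Gfap rose by 1.76 and S100b changed by -0.59. Of 3 endothelial markers Kdr fell, at -0.79, while Pecam1 and Vwf, at 0.54 and 0.36, did not pass. Of 5 leukocyte and 4 fibroblast markers 0 passed the test. The part of cell makeup in the changes below was not tested, and in such bulk RNA fewer cells of a type and less RNA per cell cannot be told apart.

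Of the 32 synthetase genes, all of which were above the filter, 3 rose, 5 fell and 24 did not pass a Benjamini-Hochberg adjusted p of 0.05 in limma. The 3 that rose, Eprs1, Tars1 and Nars1, are cytosolic, and 4 of the 5 that fell, Vars2, Hars2, Nars2 and Rars2, are mitochondrial. Among all 10320 tested genes 11.2% rose and 21.8% fell. The cytosolic counts, 3 up and 1 down of 19, correspond to 15.8% and 5.26%. The mitochondrial counts, 0 up and 4 down of 13, correspond to 0% and 30.8%. These shares lie near the background or rest on 1 to 4 genes, so the count of calls alone sets neither group apart. The median log2 change was -0.24 over the cytosolic and -0.62 over the mitochondrial genes, beside -0.14 over all tested genes.

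**Figure D1:**
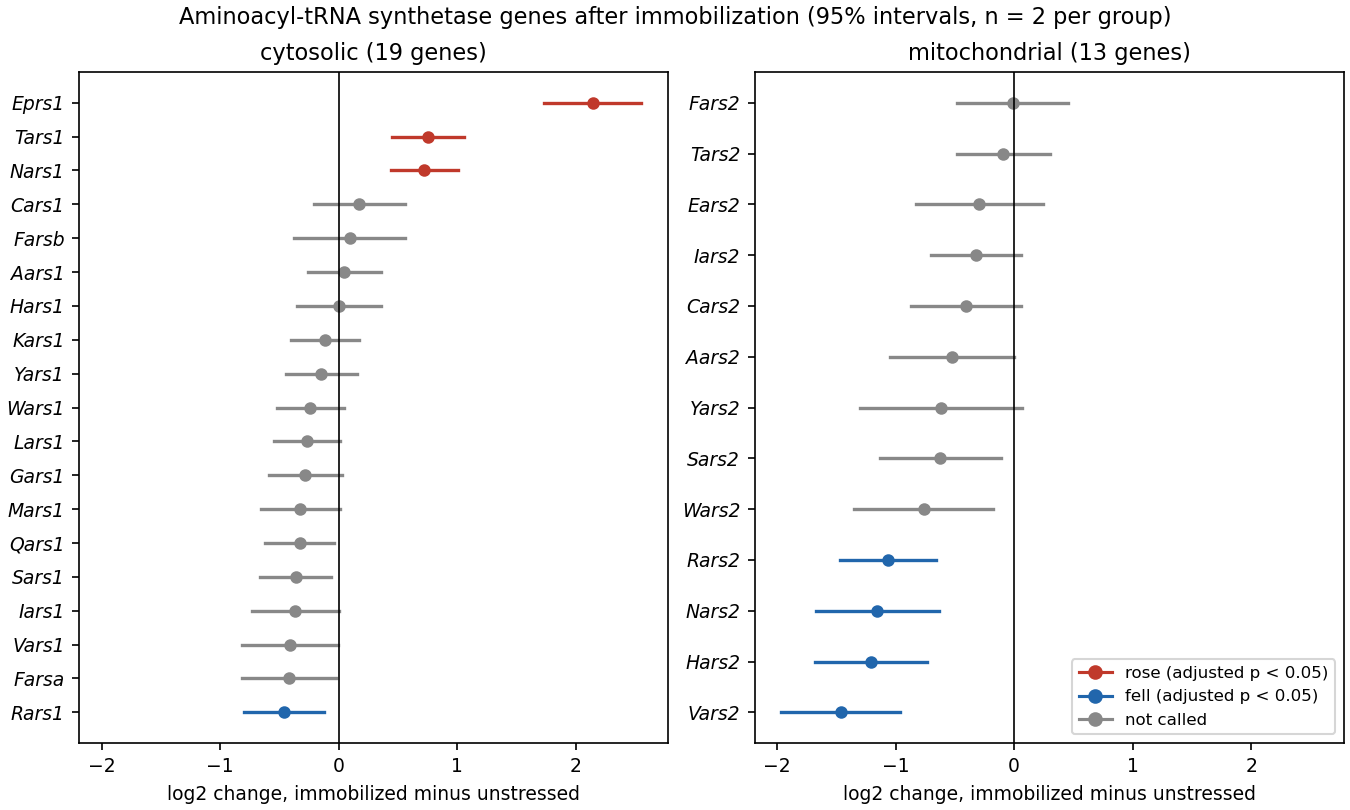
Log2 change of each synthetase gene, immobilized minus unstressed, with its 95% interval from limma, for 19 cytosolic and 13 mitochondrial genes (2 arrays per group). Red points rose and blue points fell at an adjusted p under 0.05. Eprs1 stands apart at 2.15, while all 13 mitochondrial points lie at or left of 0.

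Eprs1, the gene for the glutamyl-prolyl-tRNA synthetase, had the largest change of the family. Its brightest probe set gave readings of 10626 and 11826 without stress, against 57577 and 42809 after immobilization. The groups were far apart, with the mean going from 11226 ± 849 to 50193 ± 10443 (SD, n = 2). The log2 change was 2.15 ± 0.17 (SE), or 4.42-fold, with a 95% interval of 1.74 to 2.56 and an adjusted p of 4.28e-04 in limma. All 4 probe sets of the gene were higher on both immobilized arrays. The second read 7941 and 8556 against 42927 and 38142, a log2 change of 2.29, and the third 1375 and 2509 against 16466 and 18671, a change of 3.23. The dimmest read 46.5 and 135 against 1524 and 3055. It lay below the filter and its unstressed readings were no higher than those of the 27 probe sets for Bacillus spike-ins, 2.18 to 257, so the unstressed level was not shown to be above background. The size of the rise therefore depends on the probe set, from 2.15 at the brightest to 3.23 among those tested, and the brightest gave the smallest. Its immobilized readings, 57577 and 42809, lay toward the highest intensities of those arrays, 74590 and 52133. The part of the top of the scale in its smaller change was not tested.

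Tars1, the cytosolic threonyl-tRNA synthetase, went from readings of 3409 and 3477 to 6007 and 5631. Its log2 change was 0.75 ± 0.13, or 1.69-fold, with an adjusted p of 0.00643 in limma. Nars1, the cytosolic asparaginyl-tRNA synthetase, read 7729 and 8489 against 13183 and 13600, a change of 0.72 ± 0.12, or 1.65-fold, with an adjusted p of 0.0057. In both genes the arrays within a group lay close together and the groups did not overlap. Each has 1 probe set. Both belong to the 7 genes with the motif shown above. The other 5, Aars1, Cars1, Iars1, Mars1 and Yars1, had log2 changes of 0.05, 0.18, -0.37, -0.32 and -0.15 and did not pass. So 2 of the 7 rose, where 11.2% of all tested genes did, and Eprs1, which rose most, had no match. A link between the motif and the changes was not tested.

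Rars1, the cytosolic arginyl-tRNA synthetase, went from readings of 5988 and 7239 down to 4891 and 4692. Its log2 change was -0.46 ± 0.14 with an adjusted p of 0.0493 in limma. This was the weakest call: its adjusted p was 0.0767 after quantile normalization, 0.181 after centring each array on its median, 0.0754 without the filter, 0.0935 without the intensity trend and 0.0516 with robust variances.

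**Figure D2:**
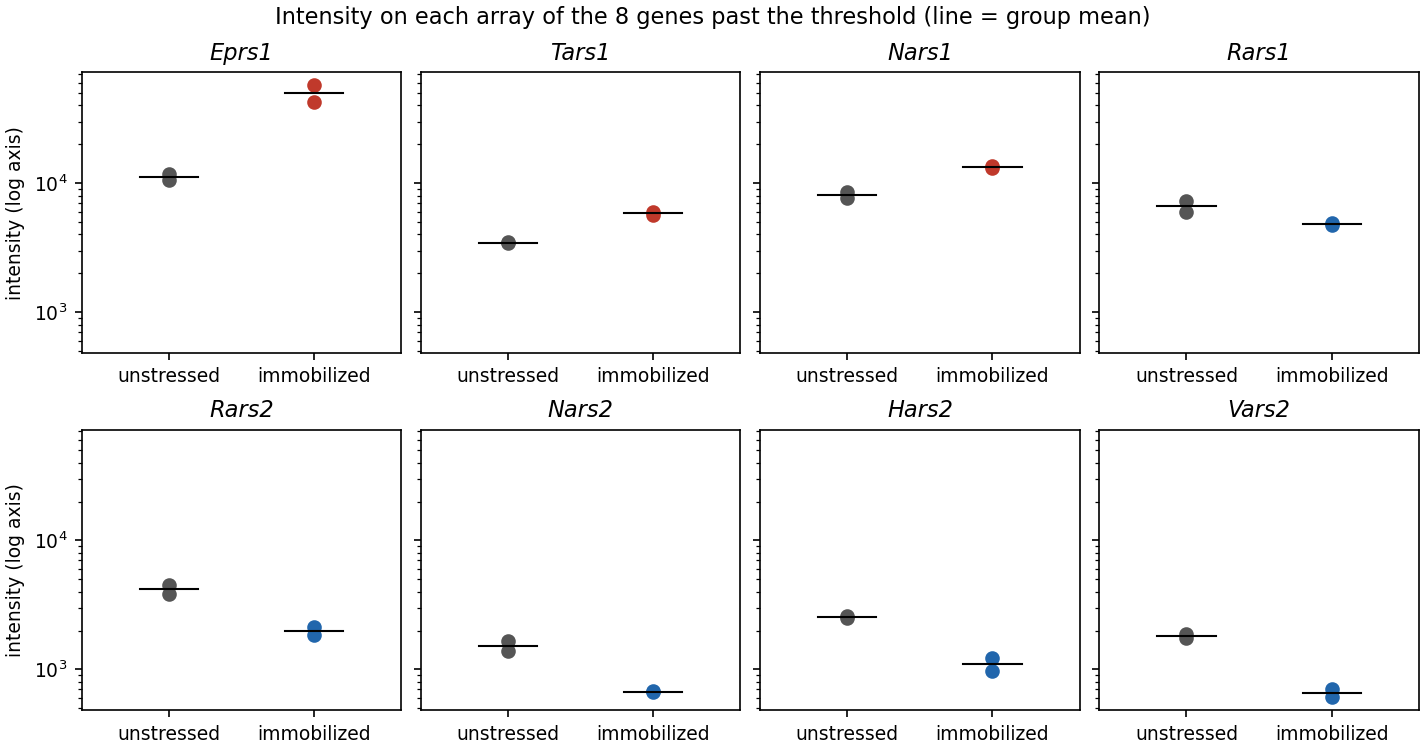
Intensity on each of the 4 arrays, on a log axis, of the 8 synthetase genes past the threshold, with lines at the group means. In each panel the groups do not overlap, and Eprs1 goes from 11226 to 50193 while Vars2 goes from 1824 to 653.

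The other 15 cytosolic genes had log2 changes from -0.42 for Farsa to 0.18 for Cars1, with adjusted p from 0.0679 to 0.99 in limma. Aars1, the alanyl-tRNA synthetase, read 12938 and 14828 against 14851 and 13770, a change of 0.05 (95% interval -0.26 to 0.35). Hars1, for histidine, had 0.00 (-0.35 to 0.36), and Kars1, for lysine, -0.11 (-0.40 to 0.17). A 2-fold change lies outside these intervals, which cover only the brightest probe set of each gene. A dimmer probe set of Hars1 had -0.28, with a wider interval of -1.11 to 0.56, and a dimmer one of Kars1, not tested, had 0.25. Sars1, for serine, at -0.36, and Qars1, for glutamine, at -0.33, came nearest to the threshold, with adjusted p of 0.0679 and 0.0844. Qars1 passed after quantile normalization, at -0.47 with an adjusted p of 0.0131, and Sars1 passed when only 1 probe set per gene was fitted, with 0.0487. Farsa and Farsb encode the alpha and beta subunits of the same phenylalanine enzyme. Farsa read 2364 and 2510 against 1808 and 1824, a change of -0.42 (adjusted p = 0.0993 in limma), and Farsb 8080 and 5819 against 8221 and 6504, a change of 0.09. The difference between the subunits was not tested.

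The multisynthetase complex was represented by 7 synthetases: Eprs1, Iars1, Kars1, Lars1, Mars1, Qars1 and Rars1. Eprs1 rose, Rars1 fell and 5 did not pass. The change of Eprs1, 2.15, was the 1 value above 0, and those of its partners lay between -0.46 for Rars1 and -0.11 for Kars1. For all 7 genes the groups did not overlap, as was so for 69.7% of all tested genes. Of the 3 scaffold genes 0 passed. Eef1e1 (Aimp3) had 0.36, Aimp2 -0.35 and Aimp1 -0.06. Eef1e1 passed after median centring, at 0.50 with an adjusted p of 0.0341 in limma. The 12 cytosolic genes outside the complex had 2 rises, 0 falls and a median of -0.07. The rises and falls were 14.3% each inside the complex, and 16.7% and 0% outside it. Among all tested genes 11.2% rose and 21.8% fell, with a median of -0.14. With 1 or 2 genes behind each share, the calls set neither part apart.

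Among the mitochondrial enzymes, Vars2, the valyl-tRNA synthetase, had the largest fall. Its readings went from 1891 and 1756 to 700 and 606, a log2 change of -1.46 ± 0.21, or 2.76-fold lower (adjusted p = 0.00349 in limma). Hars2, for histidine, read 2596 and 2503 against 979 and 1227, a change of -1.21 ± 0.20, or 2.31-fold lower (adjusted p = 0.00569 in limma). Its dimmer probe set also fell, by 1.07 on the log2 scale. In both genes the gap between the groups was several times the gap between arrays of a group. Nars2, for asparagine, read 1670 and 1381 against 684 and 662, a change of -1.15 ± 0.22, or 2.23-fold lower (adjusted p = 0.00901 in limma). Rars2, for arginine, read 3845 and 4532 against 2147 and 1841, a change of -1.06 ± 0.17, or 2.09-fold lower (adjusted p = 0.00509 in limma). None of these readings lay within the range of the Bacillus controls.

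The remaining 9 mitochondrial genes did not pass, with adjusted p from 0.0555 to 0.967 in limma. Wars2, for tryptophan, read 1674 and 2417 against 1060 and 1310, a change of -0.76 (95% interval -1.35 to -0.18), and a dimmer probe set had -0.38. Sars2, for serine, read 2129 and 2887 against 1491 and 1728, a change of -0.62. Their groups did not overlap, but the unstressed arrays differed from each other by nearly as much as the groups did. Wars2 passed with robust variances (adjusted p = 0.0499 in limma) and with 1 probe set fitted per gene (0.0451), and Sars2 with probe sets averaged per gene (0.0489). Yars2, for tyrosine, read 1613 and 1605 against 791 and 1375, so a single immobilized array carried most of its change of -0.62. Aars2 had -0.52, Cars2 -0.40, Iars2 -0.32 and Ears2 -0.29. Tars2 and Fars2, for threonine and phenylalanine, had -0.09 and -0.01, and their groups overlapped.

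All 13 mitochondrial changes lay below 0, where 61.6% of all tested genes did, and 12 of 19 cytosolic ones did. The count depends on the scaling in the 2 smallest: Fars2 turned positive after quantile normalization, at 0.08, and Fars2 and Tars2 after median centring, at 0.13 and 0.05. With unstressed 2 or immobilized 1 left out, 11 of the 13 lay below 0. Median centring raised the median change of all tested genes from -0.14 to 0.00 and the share of rises among all called genes from 33.9% to 49.3%. The 4 mitochondrial falls and the 3 cytosolic rises passed the threshold under both scalings. Precision differed between the groups of enzymes: the mean intensity of the mitochondrial probe sets ran from 718 to 4766 and their median SE was 0.21, whereas the cytosolic ones ran from 2127 to 30709 with a median SE of 0.13. Intensities of different probe sets do not order transcript levels.

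Cytosolic and mitochondrial enzymes for the same amino acid could be set side by side in 14 combinations, with Farsa and Farsb both set against Fars2. With the deposited scaling the mitochondrial change was the lower in 12 of the 14, with a median difference of -0.57. After quantile normalization the medians over all 13 mitochondrial and 19 cytosolic genes were -0.47 and -0.21, against -0.62 and -0.24 as deposited. Asparagine was the 1 amino acid with calls in opposite directions, Nars1 up by 0.72 and Nars2 at -1.15. For threonine Tars1 rose while Tars2 had -0.09, and for glutamate Eprs1 rose while Ears2, at -0.29, did not pass. For arginine both Rars1 and Rars2 fell. For isoleucine the changes were -0.37 and -0.32. The differences within combinations were not tested.

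**Figure D3:**
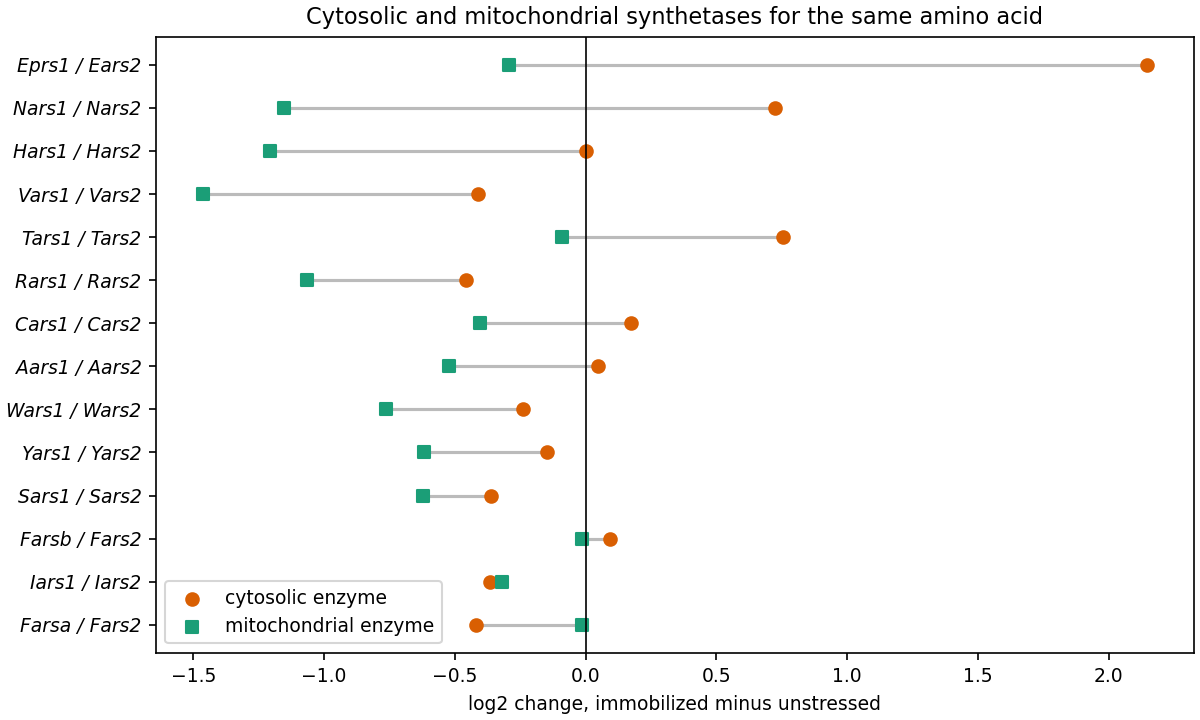
Log2 changes of the cytosolic (circles) and mitochondrial (squares) enzymes for the same amino acid, joined by a line and ordered by their difference. The square lies left of the circle in 12 of 14 rows, the exceptions being Iars1 with Iars2 and Farsa with Fars2.

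Hars1 and Hars2 lie head to head, and their promoter windows in the gene table, on opposite strands, share 243 of 300 bases. Hars1 read 3476 and 3613 against 3846 and 3278, a log2 change of 0.00 ± 0.15, beside the fall of Hars2 by 1.21. Iars2 and Eprs1 lie on chromosome 13 with 1 coding gene between them, and their changes were -0.32 and 2.15. The differences between these neighbours were not tested.

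Leaving out either immobilized array cost most of the calls on members, while their log2 changes stayed close to those above. Without immobilized 1, 5.45% of all tested genes rose and 7.03% fell, and of the members Eprs1, Rars2 and Vars2 passed. The adjusted p in limma was then 0.0809 for Tars1, 0.052 for Nars1, 0.0553 for Hars2, 0.0657 for Nars2 and 0.183 for Rars1. Their log2 changes were 0.71, 0.75, -1.05, -1.18 and -0.49. Without immobilized 2, 4.53% rose and 5.78% fell, and Eprs1, Hars2 and Vars2 passed. The adjusted p was then 0.0685 for Tars1, 0.066 for Nars1, 0.0768 for Nars2, 0.066 for Rars2 and 0.237 for Rars1, at log2 changes of 0.80, 0.70, -1.13, -0.95 and -0.43. With unstressed 2 left out, Rars1 alone of the 8 lost its call (adjusted p = 0.131 in limma), and Iars1 and Sars1 passed as well. Without unstressed 1, 0 of the 8 lost theirs, and Iars2, Mars1, Sars2 and Wars2 passed as well, which made 7 mitochondrial falls. Eprs1 and Vars2 passed in all 4 cases.

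Probe sets of the same gene mostly moved alike. The 32 genes have 50 probe sets, of which 44 were tested: 5 rose and 6 fell, where 11.7% of all tested probe sets rose and 19.4% fell. Of 14 genes with more than 1 probe set, 10 had changes of the same sign throughout. In Cars1, Farsb, Hars1 and Kars1 the signs differed, with changes from -0.28 to 0.25, and 0 of their probe sets passed. Mars2 and Ears2 are also named by probe sets listed under more than 1 gene entry. The one listed for Mars2 read 2210 and 2916 against 2765 and 3141, a change of 0.21 (adjusted p = 0.432 in limma), and the one listed for Ears2 and Ears2l1 had -0.19.

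**Figure D4:**
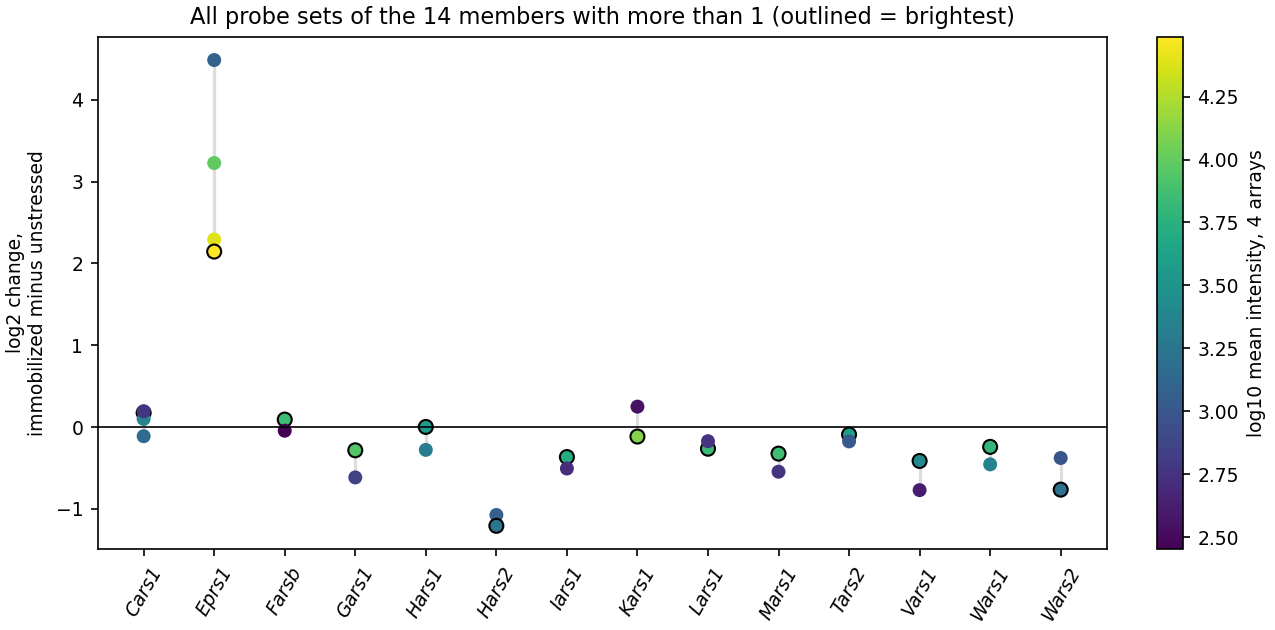
Log2 change of every probe set of the 14 synthetase genes with more than 1, coloured by mean intensity over the 4 arrays, with the brightest outlined. The 4 probe sets of Eprs1 lie between 2.15 and 4.49, with the dimmest, which was not tested, at the top, and those of Hars2 lie at -1.21 and -1.07.

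Genes that handle charged transfer RNA beside the synthetases were followed through lists. Of 7 measured relatives and proofreading genes, 0 rose and 4 fell, with a median of -1.04, where 21.8% of all tested genes fell and their median was -0.14. Dtd2, which removes wrongly attached amino acids from transfer RNA, read 2647 and 2960 against 836 and 816, a log2 change of -1.74 ± 0.19 (adjusted p = 0.00132 in limma). Pstk and Sepsecs, which convert seryl- to selenocysteinyl-tRNA in consecutive steps, changed by -1.43 and -1.04, and Prorsd1, related to a bacterial proofreading domain, by -1.43. Prorsd1 no longer passed when immobilized 1 was left out (limma adjusted p = 0.0651), nor did Sepsecs when immobilized 2 was (0.0502). Aarsd1, Tars3 and Dtd1 did not pass, at 0.18, -0.15 and -0.06.

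Of 5 genes that finish mitochondrial transfer RNA or act on it once charged, Mtfmt, which formylates the initiator methionyl-tRNA, changed by -1.32 ± 0.20, from 3397 and 3113 to 1129 and 1471 (adjusted p = 0.004 in limma). Qrsl1, Gatc and Gatb encode the amidotransferase that makes mitochondrial glutaminyl-tRNA, since no mitochondrial glutaminyl-tRNA synthetase is known in mammals. They had -0.72, -0.53 and -0.39 and did not pass, the first 2 with an adjusted p of 0.0517 in limma. Mtfmt was the 1 call among the 5, or 20%, near the 21.8% of all tested genes that fell. All 5 genes lay below 0, as did 61.6% of all tested genes. Elongation factors, which deliver charged transfer RNA to the ribosome or move the ribosome on, showed no call. Of 7 cytosolic and 4 mitochondrial genes 0 passed, where 11.2% of all tested genes rose and 21.8% fell. Their changes ran from -0.30 to 0.16 and from -0.32 to 0.27. At an unadjusted p under 0.05 the count was 1, Eef1d, which passed after quantile normalization at -0.42 (adjusted p = 0.0167 in limma).

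Of 23 tested genes of the amino acid response other than synthetases, 8 rose and 2 fell, or 34.8% and 8.70%, beside 11.2% and 21.8% of all tested genes. The median was 0.26. Atf4 itself rose by 1.57 ± 0.14, from 14399 and 15969 to 47786 and 42745. The stress regulators Ddit4 and Trib3 rose by 2.44 and 2.28, and the amino acid transporter genes Slc7a5 and Slc7a11 by 2.33 and 2.26. Mthfd2, a mitochondrial folate enzyme, rose by 1.29, Chac1, which degrades glutathione, by 1.21 and Cebpg, an Atf4 partner, by 0.49. Ddit3 and Eif4ebp1, both textbook Atf4 targets, changed by -0.97 and -1.06. Asns, the asparagine synthetase that is often used as a readout of this pathway, read 2904 and 2231 against 3502 and 2993, a change of 0.34 that did not pass (adjusted p = 0.209 in limma). Without immobilized 1 or immobilized 2 the call on Chac1 was lost (adjusted p = 0.0688 and 0.0699) and so was that on Cebpg (0.134 and 0.275), which also failed without the filter (0.0671) or the intensity trend (0.0792). Without immobilized 2 that on Ddit3 was lost as well (0.0534). The motif TGATGNAA lay in 5 of the 25 matched promoter windows of this list, or 20%, against 3.98% of all windows. Of these genes Chac1 and Trib3 rose, Pck2 and Slc7a1 did not pass, at -0.47 and -0.07, and Nupr1 was below the filter.

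The next list held kinases and phosphatase subunits that set the phosphorylation of eIF2 alpha, the switch upstream of Atf4, with Gcn1 and Impact. Of these 8 genes 2 rose and 2 fell, or 25% each, beside 11.2% and 21.8% of all tested genes. Ppp1r15a, an inducible phosphatase subunit, rose by 1.97 ± 0.13. Eif2ak4, the kinase that senses uncharged transfer RNA, read 3886 and 2433 against 5229 and 6197, a change of 0.88 ± 0.23 (adjusted p = 0.0289 in limma). Eif2ak1 and Eif2ak2 changed by -0.59 and -0.74. The calls on the 3 kinases were lost without either immobilized array, with adjusted p from 0.0638 to 0.201 in limma. Eif2ak2 also lost its call after quantile normalization (0.0641) and median centring (0.0729), and Eif2ak4 without the intensity trend (0.0529).

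**Figure D5:**
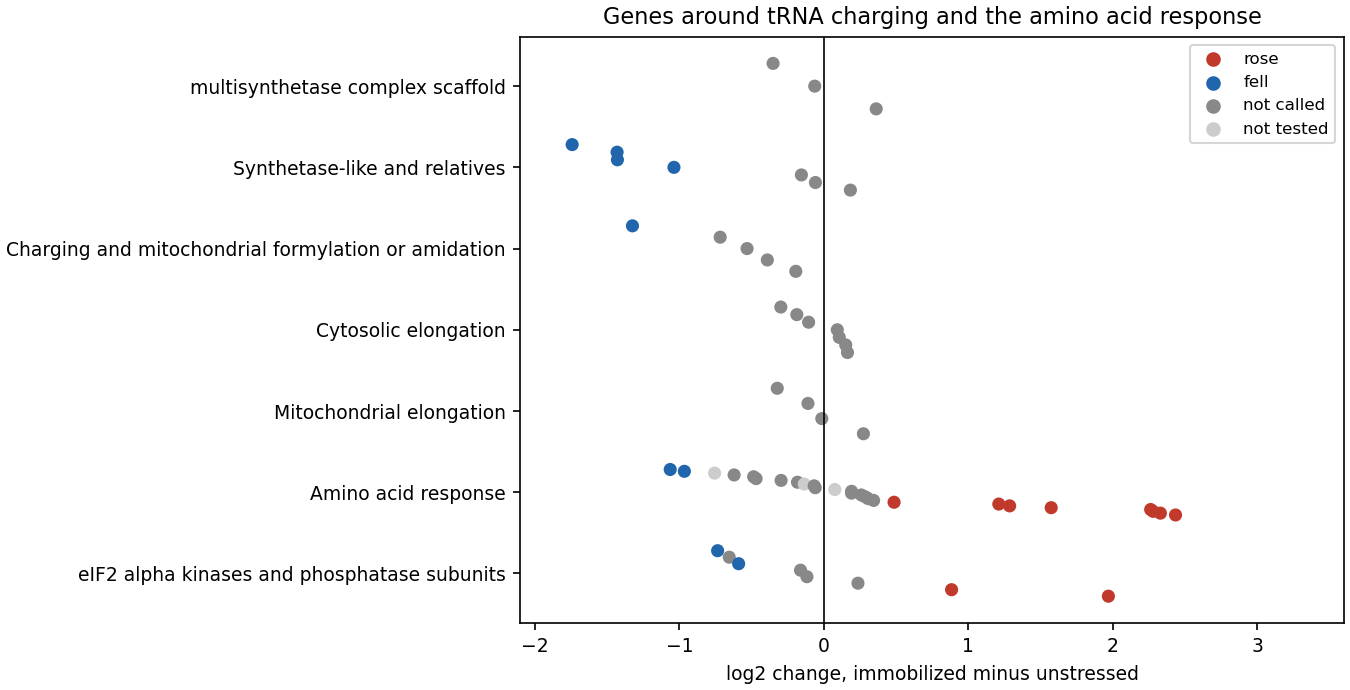
Log2 changes of the genes in 7 lists around transfer RNA charging, 1 point per gene, coloured by the test. The relatives and proofreading genes hold 4 falls down to -1.74, the elongation factors lie near 0, and the amino acid response runs from -1.06 to 2.44.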

How the data were processed

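Total RNA of rat adrenal medulla was measured on 4 arrays, 2 unstressed and 2 immobilized, grouped by the submitters' descriptions. Replicate numbers follow accession order and pair no samples. The authors deposited 1 linear intensity per probe set and array, 31099 in all, and the sources used here do not give the method of probe summarisation. The columns share a trimmed mean (2% at each end) within 0.00572%, so no scaling was added. With 57 controls left out, probe sets under the 40th percentile of mean log2(intensity + 16), an intensity of about 544, were set aside, leaving 18625. limma 3.58.1 in R 4.3.3 (lmFit, eBayes with trend, two-sided) compared the groups, with p-values adjusted by Benjamini and Hochberg's method over these. The fit was tested on simulated data. Genes were named from the platform annotation, and all 32 members were found in the GRCr8 gene table by Entrez identifier. Members, lists and motifs were chosen with earlier results of these data known. Named are all members, called list genes and the largest changes of lists with no call, and some further list genes chosen after their values were seen. There were 0 unused sample columns. Some items are not reported here. The number of arrays limits the precision.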

Additional observations from a re-analysis of the deposited data

How the results depend on the processing

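Of 15 alternatives, offsets of 1 and 64 changed no call among the 89 tested genes of the family and its lists, and no result reversed its direction past the threshold. The 3 cytosolic rises passed in all alternatives but those without an immobilized array, where 1 did, and mitochondrial rises were 0 throughout. The count of cytosolic falls, 1 as reported, was 0 after median centring, with no filter, with no intensity trend and with robust variances, 2 with 1 probe set per gene, and 4 at a threshold of 0.10. Mitochondrial falls were 2 with a filter at the 60th percentile, which left Nars2 and Vars2 untested, and 5 with robust variances, with probe sets averaged per gene and with 1 probe set per gene. At a threshold of 0.10 the members called were 13 and the list genes that fell were 15. The cytosolic median was -0.21 after quantile normalization, -0.10 after median centring and -0.22 with averaged probe sets, and the mitochondrial median was -0.47 and -0.48 under the first 2. With each array left out in turn, members called ranged from 3 to 12, cytosolic rises from 1 to 3, cytosolic falls from 0 to 2, mitochondrial falls from 2 to 7, list falls from 5 to 12, all genes rising from 467 to 1408 and falling from 597 to 2272. The medians then ranged from -0.22 to -0.17 and from -0.73 to -0.45. A lone array was taken to vary as the other group did. No paired analysis was possible because the descriptions give no replicate numbers. Among members and lists, the dimmest probe sets of Eprs1 and Farsb, Psat1 and Stc2 had readings within the range of the Bacillus controls, and none of these was tested.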
